A study of Homo sapiens with 4 samples.

Results

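The genes described here encode 10 secreted growth and angiogenic factors, namely VEGFA, VEGFC and PGF of the vascular endothelial growth factor family, PDGFA and PDGFC, FGF2, FGF5 and FGF7, HGF, and ANGPTL4. They were listed by name rather than by a cut on a measured value, but with earlier results of these data known. Each of the 10 symbols matched 1 of the 63677 gene identifiers in the count files. IMR90 cells, a line of normal fibroblasts from fetal lung, were transfected with a non-targeting control siRNA (NTC) or with siRNA against HMGB1 and collected after 72 h. Each group had 2 libraries of poly(A) RNA, one from each of the isolates I90-10 (replicate 1) and I90-79 (replicate 2) at passage 5, so each isolate stands once in each group. The study's methods name 2 different siRNAs for IMR90, and the labels do not say which of them a knockdown library received. The labels name the 2 isolates as the biological replicates, and every spread given here is between 2 libraries of different isolates.

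Growth factors of this kind are released by fibroblasts and act on neighbouring cells through receptor tyrosine kinases. VEGFA and PGF bind receptors on endothelial cells and drive or modulate the growth of blood vessels, while VEGFC acts mainly on lymphatic vessels. PDGFs signal to mesenchymal cells, and FGF7 and HGF are classic fibroblast signals to the epithelium, HGF through the receptor MET. ANGPTL4 is a secreted inhibitor of lipoprotein lipase that is induced by low oxygen and by PPAR ligands. Several of these factors belong to the senescence-associated secretory phenotype (SASP), the set of proteins that senescent cells release.

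The libraries held between 29861687 and 35317010 counted reads. HMGB1 itself had 181 and 237 CPM in control and 16.0 and 18.9 CPM in knockdown libraries (CPM, counts scaled to a common library size with the TMM method), a log2-fold change of −3.59 (standard error, SE, 0.19, adjusted p = 0.0075), so the targeted gene followed the labels. All 9 fibroblast markers examined were expressed, and their summed level, most of it from COL1A1, COL1A2 and COL3A1, followed the isolate. It was 34670 and 33570 CPM in the I90-10 and 18780 and 21480 CPM in the I90-79 libraries. Single markers differed between the groups. THY1 (423 and 200 CPM in control, 229 and 93.3 CPM in knockdown libraries), PDGFRB and VIM were lower in the knockdown library of each isolate. LUM (128 and 80.6 against 187 and 175 CPM), PDGFRA and COL3A1 were higher. COL1A1, COL1A2 and DCN went in opposite directions in the isolates. Of the other cell types, the summed markers of epithelium and leukocytes stayed at or below 1.57 CPM in every library, and those of smooth muscle and pericytes between 6.18 and 8.17 CPM. The endothelial markers summed to 2.15 and 1.85 CPM in control and 4.78 and 3.81 CPM in knockdown libraries. Of these, VWF had 1.36 and 0.923 CPM in control and 4.16 and 2.59 CPM in knockdown libraries. TIE1 went the other way, with 0.681 and 0.733 against 0.554 and 0.416 CPM. CLDN5 had 0.102 and 0.19 CPM in control and 0.069 and 0.801 CPM in knockdown libraries. CDH5 and EMCN had no reads in any library, and PECAM1 was not matched to an identifier. The part of this small endothelial signal in the values below was not tested.

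All 10 genes passed the filter on low counts and were tested. In edgeR's quasi-likelihood test, calls required both an adjusted p under 0.01 and a log2-fold change beyond 0.6 in size. None of the 10 was called in either direction in the fit without a term for the isolate, in which 0.0649% of all 15398 genes tested were called as higher and 0.136% as lower in the knockdown, and for 3 of the 10 (HGF, FGF7 and VEGFA) the unadjusted p was under 0.05, as for 28.3% of all genes. Once the isolate entered as a replicate block, HGF and FGF2 were called as higher and none as lower, that is 2 and 0 of 10, where 6.68% and 7.84% of all genes tested were called. The order of steps named in the study's methods, RUVs followed by DESeq2, called HGF as higher and none as lower, against 4.96% and 5.38% of all genes tested. In 2 genes (HGF and VEGFA) both knockdown libraries lay above both control libraries, and in 3 (FGF5, FGF7 and PDGFA) both lay below. Over all genes tested these shares were 29.8% and 30.2%, so the counts among the 10 genes are near or below this background. The median log2-fold change of the 10 was 0.25 and that of all genes tested −0.0054.

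**Figure D1:**
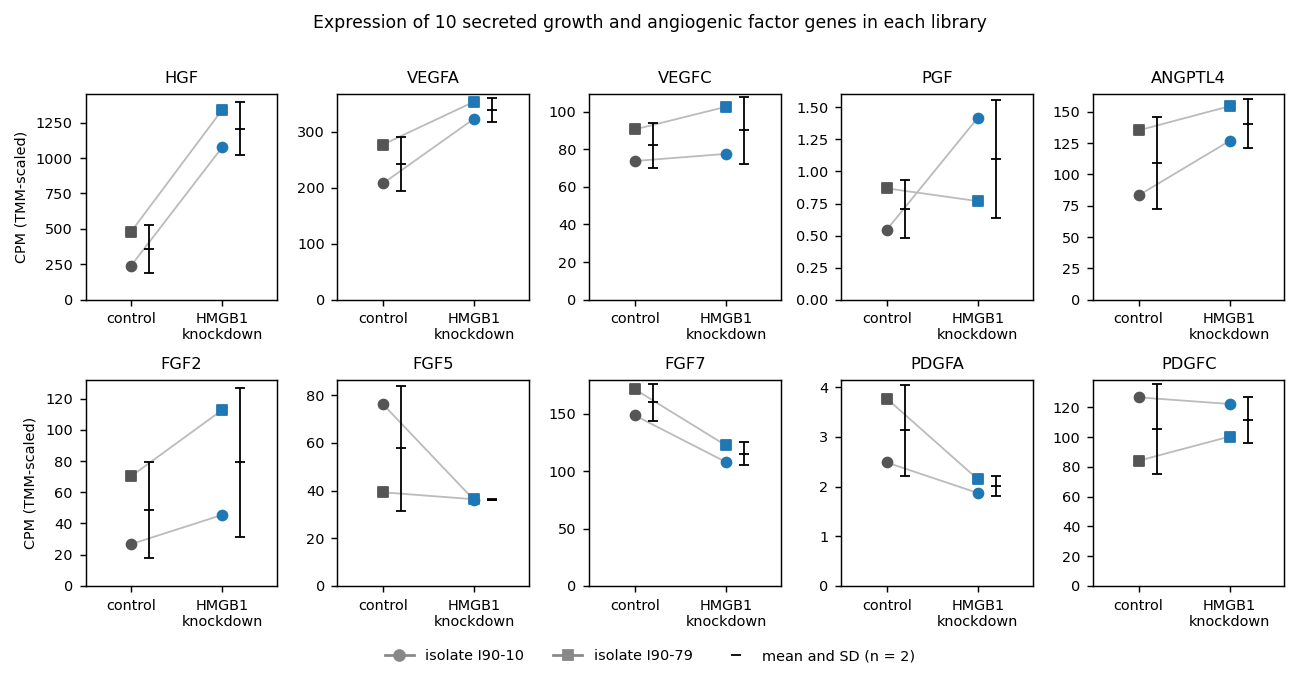
Expression of each of the 10 genes in CPM, on a linear axis from 0, in the control (grey) and HMGB1 knockdown (blue) libraries. Circles are isolate I90-10 and squares isolate I90-79, lines join the libraries of 1 isolate, and the black bars give the mean and SD of 2 libraries. HGF climbs steeply in both isolates, FGF2 keeps a gap between the isolates in both groups, and the lines of PGF cross.

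HGF, which codes for hepatocyte growth factor, the ligand of MET and a fibroblast signal for epithelial growth and motility, showed the largest difference of the 10. The gene (ENSG00000019991) occupies chr7:81328322-81399754 of hg19, the build of all positions given here, on the minus strand, and none of its annotated exonic bases overlap another gene. It had 239 CPM (I90-10) and 479 CPM (I90-79) in the control and 1076 CPM (I90-10) and 1341 CPM (I90-79) in the knockdown libraries. Both knockdown libraries were thus well above both controls, and in each group I90-79 had the higher value. The group means were 359 ± 169.6 and 1208 ± 187 CPM (SD, n = 2), a 3.36-fold difference. The log2-fold change of 1.75 (SE 0.35) had an adjusted p of 0.047 without the isolate term, short of the threshold, and one of 1.82 (SE 0.16, adjusted p = 1.6e-04) with the replicate block. Within the isolates, the fold difference was 4.49 in I90-10 and 2.80 in I90-79. DESeq2 alone called HGF as well (log2-fold change 1.75, adjusted p = 4.3e-06), as did RUVs followed by DESeq2 (1.47, adjusted p = 3.2e-17), and it was higher in the knockdown under all 11 alternatives tried, between 1.33 and 2.34. Leaving out 1 library at a time, it was called only without control replicate 2 (log2-fold change 2.34, adjusted p = 0.0026).

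The size of this difference set HGF apart within the set of 10. Among all genes tested, 223 (1.45%) had a larger log2-fold change. By mean CPM, HGF ranked 415 among the genes tested in the control and 78 in the knockdown. Reads on the 10 genes together summed to 985 and 1352 CPM in control and 1918 and 2326 CPM in knockdown libraries. HGF supplied 24.3% and 35.5% of that sum in control and 56.1% and 57.6% in knockdown libraries. Without HGF, the other genes summed to 746 and 872 CPM in control and 842 and 985 CPM in knockdown libraries. These ranges overlap, but within each isolate the knockdown library had the higher sum. Because these are bulk samples, more cells that express HGF and more HGF RNA per cell cannot be told apart.

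Among the VEGF family, VEGFA, the main inducer of blood vessel growth and a target of the hypoxia-inducible factors, had 207 CPM (I90-10) and 277 CPM (I90-79) in control and 323 CPM (I90-10) and 353 CPM (I90-79) in knockdown libraries. The groups did not overlap, and the knockdown library was the higher one in each isolate. The log2-fold change was 0.48 (SE 0.18, adjusted p = 0.152), and 0.29 (adjusted p = 0.490) without control replicate 1. With the replicate block it was 0.49 (SE 0.11, adjusted p = 0.0092), which passes the threshold on p and not that on the fold. VEGFA (ENSG00000112715) occupies chr6:43737921-43754224 on the plus strand.

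VEGFC (ENSG00000150630, chr4:177604689-177713881, minus strand), the lymphatic member of the family, had 73.7 CPM (I90-10) and 90.5 CPM (I90-79) in control and 77.5 CPM (I90-10) and 103 CPM (I90-79) in knockdown libraries. Here the libraries sorted by isolate rather than by siRNA, and the groups overlapped. The difference, 0.13 on the log2 scale (SE 0.18, adjusted p = 0.679), was smaller than its standard error and took the opposite sign with RUVs (−0.050). PGF (ENSG00000119630, chr14:75408537-75422487, minus strand), placental growth factor, was close to the limit of what these libraries could measure, with 16 and 32 reads in the control and 41 and 24 reads in the knockdown. On the CPM scale this was 0.545 and 0.868 against 1.42 and 0.768, and the isolates went in opposite directions. Its log2-fold change of 0.61 had a standard error of 0.48 (adjusted p = 0.450), and it lay between 0.11, without knockdown replicate 1, and 0.997, without control replicate 2.

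ANGPTL4 (ENSG00000167772, chr19:8428173-8439257, plus strand), the lipoprotein lipase inhibitor, had 83.3 CPM (I90-10) and 135 CPM (I90-79) in control and 127 CPM (I90-10) and 154 CPM (I90-79) in knockdown libraries. Each isolate had more in its knockdown library, but the control library of I90-79 lay above the knockdown library of I90-10. The log2-fold change was 0.36 (SE 0.25, adjusted p = 0.397) and 0.40 with the replicate block (SE 0.12, adjusted p = 0.035), short of the threshold in both fits. Leaving out the control library of I90-10 (replicate 1) gave 0.055, and leaving out that of I90-79 (replicate 2) gave 0.76.

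The FGF genes went different ways. FGF2, the basic fibroblast growth factor, a mitogen for endothelial cells and for fibroblasts themselves, had 26.8 CPM (I90-10) and 70.3 CPM (I90-79) in control and 45.5 CPM (I90-10) and 113 CPM (I90-79) in knockdown libraries. The isolates differed more than the groups did, so the groups overlapped, while within each isolate the knockdown library was higher by a similar factor, 1.70-fold in I90-10 and 1.605-fold in I90-79. The fit without the isolate term gave a log2-fold change of 0.70 with a standard error of 0.59 (adjusted p = 0.478). The replicate block left the estimate at 0.72 and cut the standard error to 0.098 (adjusted p = 0.0012). FGF2 was also called without the isolate term when no filter on low counts was applied (0.71, adjusted p = 2.1e-04). In that setting 1118 of 27391 genes were called as higher, against 10 of 15398 with the filter. RUVs with 1 factor followed by DESeq2 gave 0.021 (adjusted p = 0.957), and leaving out single libraries moved the estimate between −0.091, without knockdown replicate 2, and 1.57, without control replicate 2. FGF2 (ENSG00000138685) occupies chr4:123747863-123819391 on the plus strand, and 11.9% of its exonic bases are also exonic in NUDT6, its antisense neighbour. NUDT6 had 57 and 89 reads in control and 44 and 46 in knockdown libraries, against at least 786 on FGF2, and the strand setting of the counting is not given in the sources used here.

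FGF7 (ENSG00000140285, chr15:49715293-49780972, plus strand), keratinocyte growth factor, a paracrine signal from fibroblasts to epithelium, had 149 CPM (I90-10) and 171 CPM (I90-79) in control and 108 CPM (I90-10) and 122 CPM (I90-79) in knockdown libraries. Every knockdown library lay below every control library, and the isolates had nearly the same ratio, 0.726 and 0.714. The log2-fold change was −0.47 (SE 0.13, adjusted p = 0.093), and with the replicate block −0.47 (SE 0.092, adjusted p = 0.0060), again past the threshold on p and not on the fold. Of the pieces of 50 bases in FGF7 transcripts, 9.48% are shared with other genes, FGF7 pseudogenes among them, and reads from such stretches could be lost or misplaced. For FGF5 (ENSG00000138675, chr4:81187753-81257834, plus strand), an inhibitor of hair growth in the skin, the control libraries themselves were far apart, at 76.2 CPM (I90-10) and 39.3 CPM (I90-79), and the knockdown libraries had 36.0 and 36.3 CPM. The 2 knockdown libraries were almost identical and just below the lower control. The difference of −0.67 on the log2 scale (SE 0.31, adjusted p = 0.228) came to −1.08 in I90-10 and −0.11 in I90-79. Leaving out control replicate 2 gave −1.07. FGF5 was called without the filter on low counts (adjusted p = 0.0012), where 1275 of 27391 genes were called as lower. Without control replicate 1 the estimate was −0.12 (adjusted p = 0.783), and with RUVs followed by DESeq2 it was −0.31 (adjusted p = 0.372).

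Across all genes, those with the 6-base word GCAGTT in the 3′ UTR had a lower median log2-fold change upon HMGB1 knockdown than those without it. The word was taken from an earlier look at these same counts, so what follows is a description. In this annotation, 40.2% of the 12574 tested genes whose 3′ UTR had 100 bases or more held it on the transcript strand. Their median log2-fold change was −0.14, against 0.075 for the genes without it and −0.27 for the 983 genes with at least 3 copies. These groups of genes were not matched for 3′ UTR length, which bears on how many copies can occur. Of the 10 growth factor genes, 4 held the word. FGF2 had 4 copies, FGF7 and PDGFC 2 each and VEGFA 1, and the 3′ UTR of HGF, at 7121 bases the longest of the set, had 0. The sites of FGF2 and FGF7 are shown because these FGF genes carry the same letters and differ in direction. They run 5′ to 3′ on the transcript strand of hg19 (plus strand for both genes), with the word in capitals and 12 bases on each side.
FGF2, chr4:123814006-123814035: tataattctctgGCAGTTccttatgataga
FGF2, chr4:123814714-123814743: ttttgcatggctGCAGTTcctttgtttctt
FGF2, chr4:123816751-123816780: ttttttaagaagGCAGTTtgtcaattttaa
FGF2, chr4:123817243-123817272: ctaatgccaacgGCAGTTtttttcttctta
FGF7, chr15:49778132-49778161: aaaatagaagatGCAGTTaagaataagggg
FGF7, chr15:49780067-49780096: agggcttatcatGCAGTTtggtttacatcc
FGF2, with 4 such words, had more reads in the knockdown library of each isolate, and FGF7, with 2, had fewer. FGF5 and PDGFA, with log2-fold changes of −0.67 and −0.64, held no copy. Among the partner genes described below, 9 were called as lower and 1 as higher with the replicate block. Of the 9, NRP2, FGF1, ANGPTL2, HIF1A, KDM3A and NDRG1 held 2 copies each, PDK1 5, EPAS1 1 and PDGFRB 0. CD36, the 1 called as higher, held 0. Whether the word had a part in any of these values was not tested.

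The PDGF ligands, which signal to fibroblasts, smooth muscle cells and pericytes, differed widely in level. PDGFC (ENSG00000145431, chr4:157681606-157892546, minus strand) had 127 CPM (I90-10) and 84.2 CPM (I90-79) in control and 122 CPM (I90-10) and 100.4 CPM (I90-79) in knockdown libraries. The knockdown values lay between the control values. The log2-fold change was 0.079 (SE 0.23, adjusted p = 0.851). PDGFA (ENSG00000197461, chr7:536895-559933, minus strand) was scarce, with 2.49 CPM (I90-10) and 3.77 CPM (I90-79) in control and 1.87 CPM (I90-10) and 2.15 CPM (I90-79) in knockdown libraries, from 73 and 139 reads against 54 and 67. Both knockdown libraries were lower than both controls. Its log2-fold change of −0.64 (SE 0.31) did not pass the test without (adjusted p = 0.248) or with the replicate block (adjusted p = 0.096), and it was −0.31 without control replicate 2.

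**Figure D2:**
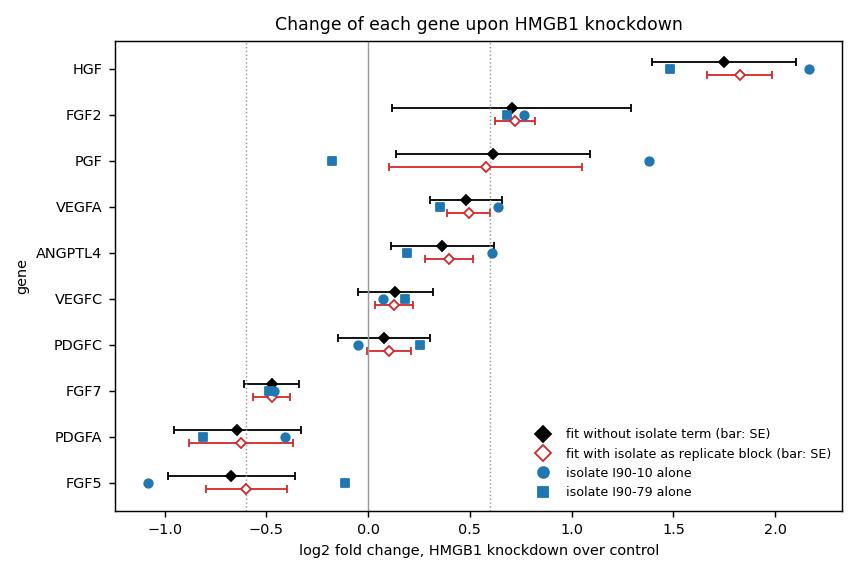
Log2-fold change of each gene, knockdown over control, in the fit without an isolate term (black) and in the fit with the replicate block (red), each with its standard error, and in each isolate alone (blue). Dotted lines mark the fold threshold of 0.6. HGF lies far to the right in every estimate, the block shortens the error bar of FGF2 from 0.59 to 0.098, and the isolates of PGF and PDGFC fall on opposite sides of 0.

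To compare levels between genes, CPM were divided by the exonic length in the count files (RPKM, here CPM per kilobase of exon). In the control, ANGPTL4 (44.01 ± 14.8 RPKM), HGF (40.4 ± 19.1) and VEGFC (33.9 ± 4.90, SD, n = 2) led the order, and each of these overlapped its neighbour in range. FGF7 (24.04 ± 2.42), PDGFC (18.9 ± 5.39) and VEGFA (16.8 ± 3.40) formed a lower, overlapping group, followed by FGF5 (9.63 ± 4.36) and FGF2 (7.16 ± 4.54), which overlapped each other. PDGFA (0.754 ± 0.219) and PGF (0.119 ± 0.038) stood far below and did not overlap. In the knockdown, HGF at 136 ± 21.1 RPKM (SD, n = 2) was alone at the top, with no overlap with ANGPTL4 at 56.7 ± 7.88. VEGFC (37.1 ± 7.31) and VEGFA (23.4 ± 1.49) came next, each apart from its neighbours, while PDGFC (19.9 ± 2.77) overlapped FGF7 (17.3 ± 1.54) and FGF7 overlapped FGF2 (11.7 ± 7.02). FGF5 (6.03 ± 0.035), PDGFA (0.484 ± 0.047) and PGF (0.184 ± 0.077) closed the order, each apart from the next. The lengths count every annotated exon, 14431 bases for VEGFA, so a gene with many unused exons reads too low on this scale.

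**Figure D3:**
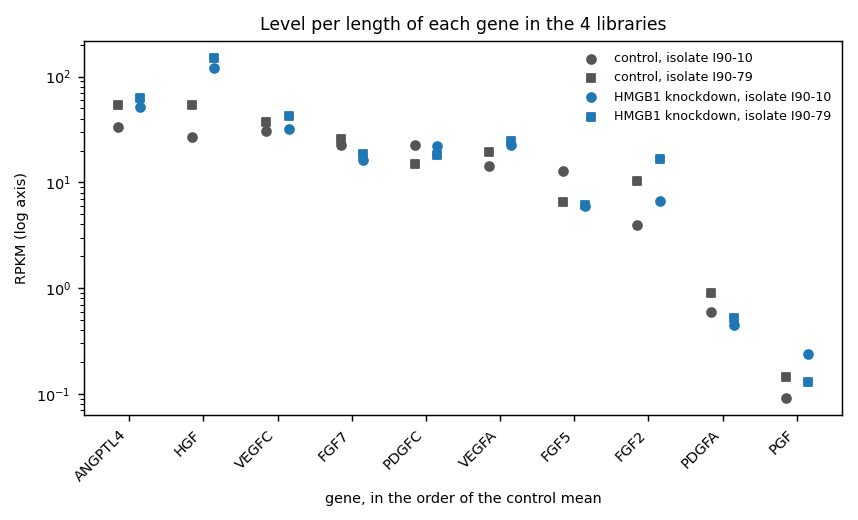
RPKM of each gene on a logarithmic axis, with the genes in the order of their control mean. Grey points are control and blue points knockdown libraries, circles are isolate I90-10 and squares isolate I90-79. HGF moves from a place beside ANGPTL4 and VEGFC to the highest level of the 10, and PDGFA and PGF stay below 1 RPKM in all 4 libraries.

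Part of the variation among these genes lay between the isolates. In the fit with the replicate block, the difference between I90-79 and I90-10 was examined at the same thresholds, a comparison added after the values had been seen. FGF2 was called, at 2.55-fold higher in I90-79 (adjusted p = 0.0016), and it was the 1 gene of the 10, where 1.67% of all genes tested were called in either direction. The ratio between the isolates was 2.63 in control and 2.48 in knockdown libraries. HGF (1.58-fold, adjusted p = 0.045) and ANGPTL4 (1.41-fold, adjusted p = 0.049) were also higher in I90-79 without being called. For HGF, the ratio was 2.002 in control and 1.25 in knockdown libraries. Each isolate has 1 library in each group, so a difference between the isolates in their response could not be tested.

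The partners of the 10 genes, namely their receptors, related ligands and regulators, were taken from 7 lists of 87 genes in all. Of these, 55 were tested, with a median log2-fold change of −0.0055. None was called without the isolate term, where 0.0649% of all genes tested were called as higher and 0.136% as lower, and for 19 the unadjusted p was under 0.05, as for 28.3% of all genes tested. With the replicate block, 1 of the 55 was called as higher and 9 as lower, where 6.68% and 7.84% of all genes tested were called. HGF's receptor MET had 35.4 and 43.4 CPM in control and 55.8 and 51.7 CPM in knockdown libraries, with a log2-fold change of 0.45 (SE 0.14, adjusted p = 0.119). It was higher in both knockdown libraries and was not called in either fit. On the list of HGF activation and receptor, 4 of 8 genes were tested, MET among them, and none was called in either fit.

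Among the receptors for the VEGF ligands, the coreceptor NRP2, which binds VEGFC and semaphorins, fell with the replicate block. It had 184 and 168 CPM in control and 80.3 and 69.5 CPM in knockdown libraries, so every knockdown library had less than every control library. The log2-fold change was −1.24 (SE 0.13, adjusted p = 0.0135, and 9.9e-05 with the block). NRP1, its paralogue and the most abundant VEGF receptor gene per length here, lay on the other side, with 310 and 291 CPM in control and 400.2 and 402 CPM in knockdown libraries (log2-fold change 0.42, adjusted p = 0.098, not called in either fit). The endothelial receptor genes KDR and FLT1 had at most 25 and 81 reads in a library, and FLT4 at most 9. The receptors for PDGF were far more abundant. PDGFRA had 576 and 818 CPM in control and 1062 and 1026 CPM in knockdown libraries (log2-fold change 0.58, adjusted p = 0.141, and 0.012 with the block). PDGFRB had 186 and 92.5 CPM in control and 103 and 64.9 CPM in knockdown libraries. It was called as lower with the block (log2-fold change −0.68, adjusted p = 0.0026) and was not called without it (adjusted p = 0.277). RUVs followed by DESeq2 gave −0.23 for PDGFRB (adjusted p = 0.321). Of the exonic bases of PDGFRA, 15.8% are also exonic in FIP1L1.

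In the FGF family, FGF1, the acidic fibroblast growth factor, was lower in the knockdown, with the log2-fold change of greatest size among the 55 partner genes tested. It had 167 and 127 reads in the control and 20 and 13 reads in the knockdown, or 5.69 and 3.45 against 0.693 and 0.416 CPM. The groups were far apart in both isolates. On the log2 scale the difference was −3.04 (SE 0.43, adjusted p = 0.023), and −3.03 with the replicate block (adjusted p = 2.2e-04), where it was called. FGFR1, the most abundant FGF receptor gene here, had 450.1 and 392 CPM in control and 348 and 259 CPM in knockdown libraries, with a log2-fold change of −0.47 (adjusted p = 0.175) that was past the threshold on p and not on the fold with the block (−0.48, adjusted p = 0.0085). Of the 23 FGF ligand and receptor genes listed, 16 had too few reads to be tested.

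The oxygen-sensing pathway controls VEGFA and ANGPTL4 in many cells, and 18 of its 20 listed genes were tested. With the replicate block 5 were called as lower and none as higher, beside 7.84% and 6.68% of all genes tested, and without it none was. They were HIF1A and EPAS1, the oxygen-regulated subunits of the hypoxia-inducible factors, and the targets KDM3A, NDRG1 and PDK1. HIF1A had 499.6 and 668 CPM in control and 289 and 313 CPM in knockdown libraries (log2-fold change −0.96, SE 0.18, adjusted p = 0.042, and 5.5e-04 with the block). KDM3A, a histone demethylase, had 86.3 and 72.4 CPM in control and 26.7 and 23.6 CPM in knockdown libraries (log2-fold change −1.66, adjusted p = 0.0104, and 4.9e-05 with the block). NDRG1 and PDK1 had log2-fold changes of −0.85 and −0.77 with the block, and EPAS1 one of −0.73. RUVs followed by DESeq2 called 3 of the list as lower and 0 as higher, beside 5.38% and 4.96% of all genes tested. EPAS1 (−0.53, adjusted p = 0.0041) and PDK1 (−0.50, adjusted p = 0.039) were not called there. Of the 18 genes, 11 had a log2-fold change below 0 and 7 above it, where all genes tested split into 7756 and 7642. The 7 were ANKRD37 (0.48), SLC2A1 (0.43), EGLN2 (0.15), BNIP3 (0.13), ARNT (0.065), ADM (0.060) and HIF1AN (0.031). For SLC2A1, both knockdown libraries (388 and 328 CPM) lay above both controls (267 and 265 CPM). The median of the list was −0.25, and VEGFA and ANGPTL4, at 0.48 and 0.36, lay on the other side of 0.

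Of the PPAR regulators and targets, 11 of 12 were tested. With the replicate block 1 was called as higher and 0 as lower, beside 6.68% and 7.84% of all genes tested. CD36, a fatty acid transporter, had 2.72 and 6.68 CPM in control and 15.4 and 17.4 CPM in knockdown libraries (log2-fold change 1.79, SE 0.42, adjusted p = 0.064, and 0.0011 with the block). The receptor genes PPARA, PPARD and PPARG were not called in either fit. In the family of angiopoietins and angiopoietin-like factors, 5 of 12 genes were tested. With the block, beside the same shares of all genes tested, 1 was called as lower and 0 as higher. ANGPTL2 was the gene called (log2-fold change −0.79, adjusted p = 0.0014), and it was not called without the block (adjusted p = 0.316). It had 183 and 75.5 CPM in control and 94.1 and 49.4 CPM in knockdown libraries, and each knockdown library had less than the control of its own isolate. RUVs followed by DESeq2 gave a log2-fold change of −0.20 for ANGPTL2 (adjusted p = 0.415). LPL, the enzyme that ANGPTL4 inhibits, had at most 1 read in a library.

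**Figure D4:**
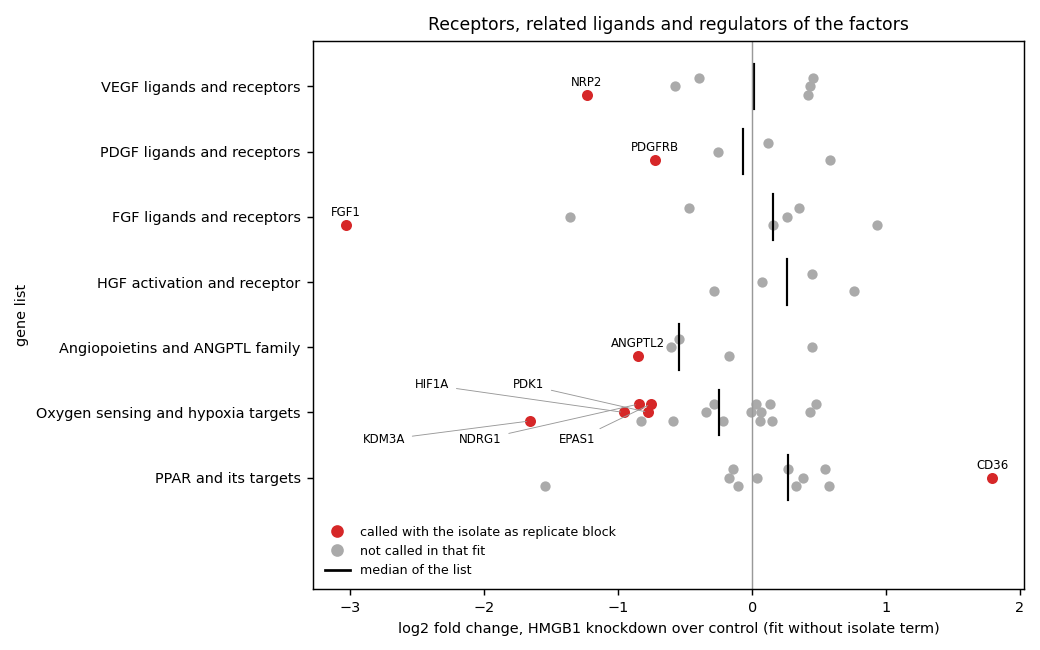
Log2-fold change, knockdown over control, of the 55 partner genes tested, in the fit without an isolate term, with 1 row of points for each list and a black bar at its median. Red points are genes called in the fit with the replicate block, and points are shifted vertically only to separate them. Of the 10 red points, 5 sit among the oxygen-sensing genes left of 0, and CD36 is the 1 to the right.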

How the data were processed

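Poly(A)-selected TruSeq libraries were sequenced as pairs (HiSeq4000). Alignment to hg19 used STAR, and the authors deposited raw counts per gene from featureCounts, 1 library per file, without normalization. Versions, the strand setting and whether read pairs were counted once are not given in the sources used here. The values are whole numbers, and totals per library ranged from 29861687 to 35317010.

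Symbols came from a table of gene names (55665 of 63677 identifiers matched). All 4 libraries were tested across all genes with edgeR 4.0.16 (R 4.3.3, limma 3.58.1), using filterByExpr (15398 genes kept), TMM scaling, the quasi-likelihood test and Benjamini-Hochberg adjustment. Calls required an adjusted p under 0.01 together with a log2-fold change beyond 0.6 in size. The standard errors given were derived from this test, as the absolute log2-fold change divided by the square root of its F statistic. With 2 libraries against 2, no exact two-sided permutation p can go below 0.333, so p-values rest on the model. Same-numbered libraries come from the same isolate, which pairs them. The correlation of the replicate differences between groups was 0.464, and blocked values stand beside the results they change. DESeq2 1.42.0, RUVs with 1 factor (written out from its description), other scalings, filters and thresholds, and leaving out each library were alternatives. The fits were tested on simulated counts with known changes. When the simulated isolates differed, the fit without the isolate term called none of the changed genes, while the blocked fit called most of them. The simulated isolate difference was the same in both groups, and the dispersion came from the blocked design. The simulation thus met the assumptions of the blocked fit and cannot decide which fit suits the genes described here. 3′ UTRs and transcripts came from GENCODE version 44 lifted to hg19, the build of the files.

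The 10 genes and all lists were chosen with earlier results of these data known. All 10 genes are named. From the partner lists, any gene called in the fit without the isolate term was to be named, otherwise up to 3 per list called with the block, and the most abundant receptor gene of each ligand family. EPAS1, PDK1, KDR, FLT1, FLT4, LPL, FIP1L1 and the PPAR receptor genes were named after their values were seen, and HMGB1 and NUDT6, which covers at least 5% of the exonic bases of FGF2, are named as checks.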

Additional observations from a re-analysis of the deposited data

Results flagged for a closer look

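For 2 of the 10 genes the isolates went in opposite directions upon HMGB1 knockdown. The other 8 had the same sign in both isolates, as did 78.3% of all genes tested. PGF had a log2-fold change of 1.38 in I90-10 and −0.18 in I90-79, a difference of −1.56, from at most 41 reads in a library. PDGFC had −0.051 in I90-10 and 0.25 in I90-79, a difference of 0.306. These differences were not tested, since each isolate has 1 library in each group.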

How the results depend on the processing

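Without the isolate term, 0 of the 10 genes were called in either direction. As higher, 1 was called with DESeq2, 1 with RUVs and DESeq2, 1 at an adjusted p below 0.05, 2 without the low-count filter, 2 with the replicate block, and 0 to 1 when single libraries were left out. As lower, 1 was called without the low-count filter, and 0 to 1 with single libraries left out. Of the partner genes, 0 were called in either direction. As higher, 1 was called with DESeq2, 2 with RUVs and DESeq2, 1 without the filter, 1 with the replicate block, and 0 to 2 with libraries left out. As lower, 5 were called with DESeq2, 5 with RUVs and DESeq2, 2 with library totals only, 10 without the filter, 9 with the replicate block, 5 at an adjusted p below 0.05, and 0 to 3 with libraries left out. DESeq2 size factors, at least 10 counts in every library and no fold threshold left all 4 of these counts at 0, as did library totals for the other 3. Over all genes, 10 and 21 were called as higher and lower, against 1028 and 1207 with the replicate block, 1118 and 1275 without the filter, 763 and 829 with RUVs and DESeq2, 728 and 818 with DESeq2, 31 and 98 with library totals only, and 6 and 16 with at least 10 counts in every library. These counts were 0 and 0 without knockdown replicate 1 or knockdown replicate 2, 118 and 181 without control replicate 1, and 305 and 337 without control replicate 2. The log2-fold change of HMGB1 lay between −3.77 and −3.38 with libraries left out, and it was not called without knockdown replicate 1 (adjusted p = 0.0487) or knockdown replicate 2 (adjusted p = 0.0324). The sign turned for VEGFC with RUVs and DESeq2 (−0.050), without control replicate 1 (−0.0099) and without knockdown replicate 2 (−0.080), for PDGFC without control replicate 2 (−0.19) and without knockdown replicate 1 (−0.073), and for FGF2 without knockdown replicate 2 (−0.091). Leaving out single libraries moved VEGFC up to 0.32, PDGFC to 0.40 and FGF2 to 1.57, and the cause of these turns was not tested. The other 7 genes kept their direction in all alternatives, but with single libraries left out VEGFA ranged from 0.29 to 0.71, PGF from 0.11 to 0.997, PDGFA from −0.91 to −0.31, FGF5 from −1.07 to −0.12 and ANGPTL4 from 0.055 to 0.76. PGF and PDGFA had the fewest reads, at most 41 and 139 in a library.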
